A study of Saccharomyces cerevisiae with 24 samples.

Results

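The genes described here are 38 yeast genes of purine and pyrimidine metabolism, listed by name and pathway with earlier results of these data known. They were found by the gene alias printed in the array files or by the current standard name of the ORF, and each of the 38 had 1 spot among the 6307 ORFs of the array. They were followed through 12 comparisons made on 24 two-color arrays of poly(A)+ RNA from *Saccharomyces cerevisiae*, with 2 arrays of reversed dyes for each comparison. All cultures were haploids of strain BY4741, of mating type a and carrying *ura3Δ0*, *leu2Δ0*, *his3Δ1* and *met15Δ0*, and the deletion strains differed from wild-type by replacement of 1 Mediator gene with a kanamycin resistance cassette. Each deletion strain was the only one of its genotype. The cells grew in YPD, a rich medium that supplies nucleobases, at 30°C to an A600 of about 0.2. The study asked how Mediator subunits act under conditions that repress ribosome synthesis.

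The groups were these. *med20Δ* was set against wild-type without treatment, and rapamycin-treated cells were set against untreated cells within *med20Δ* and within wild-type (0.2 µg/ml for 1 h). *med20Δ* was further set against wild-type with both strains treated, by rapamycin in the same way, by chlorpromazine (CPZ) for 1 h or by tunicamycin (2.5 µg/ml for 90 min). Further treatments were hydrogen peroxide (0.32 mM for 30 min) and a shift to 39°C for 20 min of cells growing at 29°C. Cells past the diauxic shift were also compared, from cultures grown for 48 h in all from an A600 of 0.01. For CPZ the labels state 250 mM, but the study's methods state 250 µM. In the last 3 comparisons *med16Δ*, *med31Δ* or *cycCΔ* was set against wild-type, all after rapamycin. Med20, Med16, Med31 and cyclin C belong to the head, tail, middle and Cdk modules of Mediator, the complex that carries signals of DNA-bound regulators to RNA polymerase II. The comparisons of strains after rapamycin all have treated wild-type as their denominator, and whether they share its RNA is not stated.

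Purine nucleotides are built on phosphoribosyl pyrophosphate (PRPP), which the *PRS* gene products make. The *ADE* enzymes carry PRPP through a chain of steps to IMP, the precursor of AMP and of GMP, and some of these steps use one-carbon units carried by folate. The *URA* enzymes make UMP and CTP. Salvage enzymes and permeases take up ready-made bases and nucleosides and return them to the nucleotide pool, so that a cell in rich medium can spare its own synthesis. In yeast, the *ADE* genes are activated by Bas1 and Pho2 when adenine runs short, and several *URA* genes by Ppr1.

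A value below is the mean log2 ratio of the 2 arrays of a comparison, with both arrays in parentheses, replicate 1 first. The numerator is the deletion strain, or the treated culture where both cultures were of 1 strain. The 2 arrays were counted as 1 replicate, since no source says that they held separate cultures, so no test across samples is possible and the difference between the 2 arrays is the only measure of error. Over all genes, the error of a pair mean from this difference was 0.146 to 0.295 on the log2 scale, lowest with tunicamycin and highest with hydrogen peroxide. A gene is called higher or lower here at 2-fold or more on the pair mean, a log2 ratio of 1, and the counts of members past it are given beside the share of all genes past the same limit. Equal amounts of poly(A)+ RNA were labeled, so a ratio concerns a gene's share of the mRNA pool, and a change in the share of cells and one in RNA per cell cannot be told apart.

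The deleted genes were examined first. *MED20* was at -0.83 (-0.81, -0.85) in untreated *med20Δ* relative to wild-type and at -0.89 (-0.57, -1.20) after rapamycin. It was below 0 on both arrays of all 7 comparisons of these strains. With hydrogen peroxide it was no lower than -0.26, within the error of a pair mean of 0.295. Past the diauxic shift it was no lower than -0.39, beside an error of 0.287. *MED16* was at -0.67 (-0.68, -0.66) in *med16Δ*, *MED31* at -1.05 (-0.86, -1.25) in *med31Δ*, and *SSN8*, the gene of cyclin C, at -0.88 (-0.95, -0.81) in *cycCΔ*, where it was not above background, so that its fall is given as at least 1.27-fold. These directions match the labels. *URA3*, the orotidine phosphate decarboxylase gene, lies in the pathway itself and is deleted in every strain by its label. Its spot was above background in 36 of 36 channels of the 18 arrays of wild-type and *med20Δ*, at net intensities of 167.0 to 12814.5, and in 2 of 12 channels of the 6 arrays of *med16Δ*, *med31Δ* and *cycCΔ*, at 9.5 to 68.0. The *URA3* signal of the 18 arrays goes against the genotype given, and its cause was not tested. Of the other marker genes absent or partly deleted by label, *LEU2* was above background in 36 of 36 channels of the 18 arrays and 11 of 12 of the 6 others, *HIS3*, whose allele is a partial deletion, in 36 and 12, and *MET15* in 13 and 1. Of the a-specific markers, *STE2*, *MFA1*, *MFA2* and *BAR1*, all 4 were below 0 on both arrays in untreated *med20Δ* relative to wild-type, the lowest at -1.70. The same held for all 4 in 5 of the other 6 comparisons of these strains (with CPZ 2 were above 0 and 2 below), and after rapamycin in *med16Δ*, at a median of -0.65, and *med31Δ*, at -1.11, while in *cycCΔ* 3 of 4 were below 0 on both arrays, at -0.69. The 3 alpha-specific markers had a median of 0.08 in untreated *med20Δ*, where *MF(ALPHA)1* was not above background. Over the 7 comparisons of these strains their median ran from -0.65 past the diauxic shift to 0.22 with tunicamycin. It was -0.04 in *med16Δ*, -0.39 in *med31Δ* and 0.33 in *cycCΔ*, where the highest stood at 1.25. What part the marker values have in the results below was not tested.

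Not every member could be followed. A spot counted as above background when its intensity, less the local background, exceeded the 95th percentile of the 29 spots without a gene name in the same channel. *ADE12* and *GUA1*, which act in the branches from IMP to AMP and to GMP, had no ratio in any comparison. The authors flagged their spots on nearly all arrays, although all 48 channels were above background. *IMD2*, an IMP dehydrogenase gene, had a ratio in 1 comparison and *FUR1*, the uracil phosphoribosyltransferase gene, in 2. *FUI1*, the uridine permease gene, was not above background in any of 48 channels, so its ratios near 0 carry no information. *ADE17* was above background in 17 of 48 channels. *PRS2* was above background in 36 of 36 channels of the 18 arrays of wild-type and *med20Δ*, at net intensities of 101.5 to 1911.0, but in 0 of 12 channels of the 6 other arrays, and no value is read from it there. The counts of members below include these 3 genes wherever they had a ratio, which gave 34 members in 10 comparisons, 30 in *med31Δ* and 32 in *cycCΔ*. Related genes with a spot each (*IMD2*, *IMD3* and *IMD4*, *ADE16* and *ADE17*, *URA5* and *URA10*, *URA7* and *URA8*, *PRS2*, *PRS3* and *PRS4*) may share labeled cDNA to an extent that was not measured.

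Rapamycin, which inhibits the TOR kinases, was followed in both strains by lower mRNA levels of genes of PRPP synthesis, the GMP branch and purine salvage and of *URA1*. In *med20Δ*, 8 of 34 members were lower by 2-fold or more after rapamycin and 1 was higher, against 5.57% and 3.19% of all genes. In wild-type, 9 were lower and 1 was higher, against 6.2% and 3.94% of all genes. The 8 genes lower in *med20Δ* (*IMD3*, *IMD4*, *AAH1*, *APT1*, *URA1*, *PRS1*, *PRS3* and *PRS4*) were all among the 9 of wild-type, and the other was *HPT1*. The median of the members was -0.30 (-0.25, -0.38) in *med20Δ* and -0.51 (-0.47, -0.48) in wild-type, while the medians over all genes were within 0.004 of 0. In each strain 19 of the 34 members, or 55.9%, were below 0 on both arrays, against 37% of all genes in *med20Δ* and 39.3% in wild-type.

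**Figure D1:**
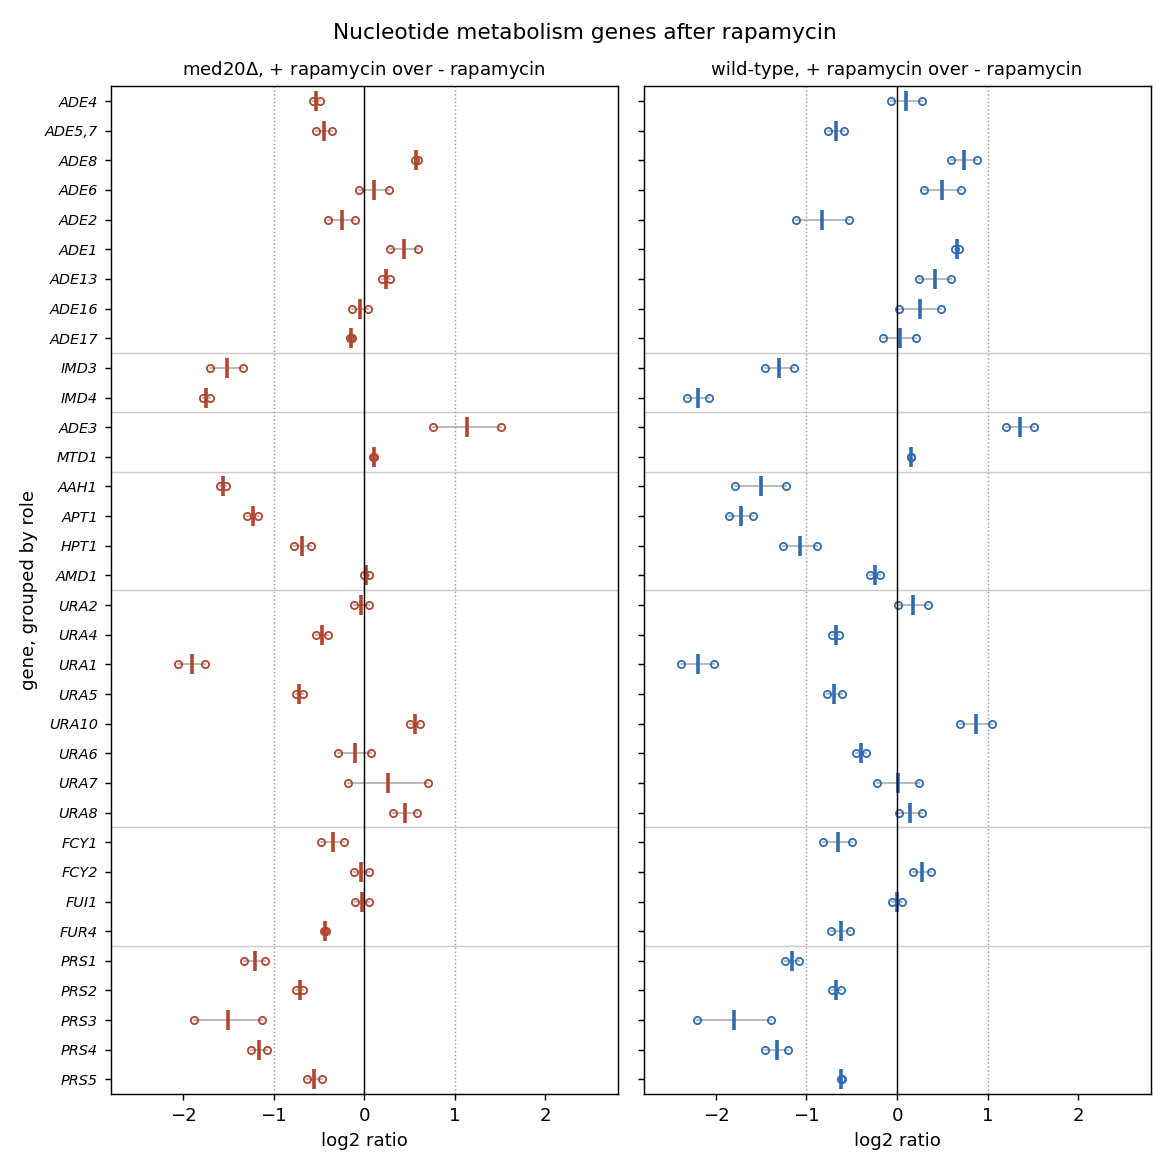
Log2 ratio of rapamycin-treated over untreated cells for the 34 members with a ratio, grouped by role, in *med20Δ* (left) and wild-type (right). Open circles are the 2 arrays, bars their mean and dotted lines 2-fold. The *IMD* and *PRS* genes and *AAH1*, *APT1* and *HPT1* lie left of 0 in both strains, down to -2.20 in wild-type, while *ADE3* lies at 1.14 in *med20Δ* and 1.35 in wild-type.

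IMP dehydrogenase makes the first committed step toward GMP, and its gene *IMD4* was among the lowest members. In *med20Δ* the net intensities of its spot on the 2 arrays were 974.5 and 480.0 after rapamycin and 1696.5 and 2309.5 without it, and in wild-type they were 315.0 and 183.5 after rapamycin and 1165.5 and 1951.0 without it. These intensities are not yet balanced between the dyes, but the treated channel was the dimmer one on all 4 arrays. The normalized ratio was -1.74 (-1.78, -1.70) in *med20Δ* and -2.20 (-2.08, -2.32) in wild-type, a 3.35-fold and a 4.59-fold lower level. The ratio of *IMD3* was -1.52 (-1.34, -1.70) in *med20Δ* and -1.30 (-1.46, -1.14) in wild-type. For *IMD3* the arrays of the 2 strains overlapped. Where they did not, as for *IMD4*, no strain difference is read, since the share of all genes without overlap was not counted.

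The 5 *PRS* genes encode subunits of PRPP synthetase, the enzyme that serves purine, pyrimidine and histidine synthesis alike. All 5 were below 0 on all 4 arrays. *PRS3* was lowest, at -1.51 (-1.13, -1.89) in *med20Δ* and -1.80 (-1.39, -2.21) in wild-type. *PRS4* was at -1.16 (-1.07, -1.25) in *med20Δ* and -1.33 (-1.20, -1.46) in wild-type, and *PRS1* at -1.21 (-1.10, -1.32) and -1.16 (-1.08, -1.24) in the same order. The arrays of the strains overlapped for each of these 3 genes. *PRS2* and *PRS5* stayed within 2-fold, between -0.71 and -0.55 in both strains.

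Among the purine salvage genes, *AAH1*, which encodes adenine deaminase, gave dim spots after rapamycin. Its net intensities in *med20Δ* were 27.5 and 12.0 with rapamycin and 143.0 and 144.5 without it, and in wild-type 26.5 and 19 with rapamycin and 197.0 and 176.5 without it. The treated channel was not above background on either array in *med20Δ* and was above it on 1 of the 2 in wild-type. The measured ratio of *AAH1* was -1.56 (-1.60, -1.52) in *med20Δ*, where the fall amounts to at least 2.91-fold when the lowest signal above background bounds the treated side, and -1.50 (-1.79, -1.22) in wild-type. *APT1*, the adenine phosphoribosyltransferase gene, was at -1.23 (-1.30, -1.17) in *med20Δ* and -1.72 (-1.59, -1.85) in wild-type. *HPT1*, which salvages hypoxanthine and guanine, was at -0.69 (-0.59, -0.78) in *med20Δ* and -1.07 (-0.88, -1.25) in wild-type, where replicate 1 alone stayed short of 2-fold. *AMD1*, the AMP deaminase gene, stayed near 0 in *med20Δ* at 0.02 (0.05, -0.01) and was at -0.24 (-0.18, -0.30) in wild-type.

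In the pyrimidine pathway 1 gene stood far from the others. *URA1*, which encodes dihydroorotate dehydrogenase, had net intensities of 548.5 and 255.0 with rapamycin and 1007.5 and 1586.5 without it in *med20Δ*. In wild-type they were 351.5 and 153.0 with rapamycin and 1238.0 and 1763.5 without it. The treated channel was dimmer on every array, and the ratio was -1.91 (-1.76, -2.06) in *med20Δ* and -2.20 (-2.02, -2.38) in wild-type. The 2 isozyme genes of orotate phosphoribosyltransferase took opposite signs. *URA5* was at -0.72 (-0.68, -0.76) in *med20Δ* and -0.69 (-0.61, -0.78) in wild-type, and *URA10* at 0.56 (0.51, 0.62) in *med20Δ* and 0.87 (0.70, 1.05) in wild-type. The dihydroorotase gene *URA4* was at -0.47 (-0.53, -0.41) in *med20Δ* and -0.68 (-0.64, -0.71) in wild-type. *URA2*, whose product starts the pathway, and the CTP synthetase genes *URA7* and *URA8* lay between -0.03 and 0.45 in both strains. Among the uptake genes, *FUR4* (uracil permease) was at -0.44 (-0.45, -0.43) in *med20Δ* and -0.62 (-0.52, -0.72) in wild-type, and *FCY1* (cytosine deaminase) at -0.35 (-0.22, -0.47) and -0.66 (-0.49, -0.82) in the same order.

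The genes of IMP synthesis did not fall as a group. Of the 9 measured, 0 passed 2-fold in either strain, with a median of -0.05 in *med20Δ* and 0.26 in wild-type. *ADE8*, the glycinamide ribotide transformylase gene, was at 0.58 (0.56, 0.59) in *med20Δ* and 0.74 (0.89, 0.60) in wild-type, and *ADE1* at 0.43 (0.28, 0.59) and 0.66 (0.68, 0.64) in the same order. *ADE5,7*, which encodes a bifunctional enzyme of the chain, went the other way, at -0.44 (-0.53, -0.35) in *med20Δ* and -0.67 (-0.58, -0.76) in wild-type. *ADE4*, which encodes the first enzyme of the chain, was at -0.53 (-0.48, -0.57) in *med20Δ* and 0.10 (-0.07, 0.28) in wild-type. *ADE2* was at -0.25 (-0.10, -0.40) in *med20Δ* and -0.82 (-0.53, -1.12) in wild-type.

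*ADE3*, the cytoplasmic C1-tetrahydrofolate synthase gene, was the only member higher by 2-fold or more after rapamycin. Its net intensities were 2483.0 and 1702.5 with rapamycin and 683.0 and 779.0 without it in *med20Δ*, and 1536.5 and 1176.5 with rapamycin and 487.0 and 681.5 without it in wild-type. The treated channel was the brighter one throughout. The ratio was 1.14 (0.76, 1.51) in *med20Δ* and 1.35 (1.20, 1.51) in wild-type. *MTD1*, a second gene of cytoplasmic folate metabolism, was at 0.10 (0.11, 0.10) in *med20Δ* and 0.15 (0.15, 0.15) in wild-type.

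The responses of the strains were then set side by side. The response had the smaller size in *med20Δ* for 24 of the 34 members, or 70.6%, against 51.4% of all genes. This count was not repeated under other ways of processing, on which the gap between the strains depended. The medians of the members were -0.45 in *med20Δ* and -0.49 in wild-type in the authors' ratios. With the local background subtracted they were -0.42 and -0.75. The error of a difference between the 2 responses was 0.228 over all genes. The difference, *med20Δ* minus wild-type, was 0.57 for *ADE2*, 0.49 for *APT1* and 0.46 for *IMD4*, and -0.63 for *ADE4*. Its median over the members was -0.02. A difference between strains was not tested for any gene, since each strain has 1 replicate.

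Without treatment the strains differed little. In *med20Δ* relative to wild-type, 0 of 34 members passed 2-fold, against 0.928% of all genes, and the median of the members was -0.06 (-0.10, 0.06). The lowest member was *URA5*, at -0.88 (-0.28, -1.49), and the highest was *ADE3*, at 0.57 (0.53, 0.62). *URA5*, *PRS3*, at -0.70 (-0.27, -1.14), and *ADE16*, at -0.53 (-0.06, -1.01), owed their means to replicate 2, on which all 3 passed 2-fold. *ADE3*, *FCY2* (purine-cytosine permease), at 0.52 (0.35, 0.70), *ADE5,7*, at 0.45 (0.40, 0.49), and *AAH1*, at -0.51 (-0.49, -0.53), had the same sign on both arrays.

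After rapamycin 0 of 34 members passed 2-fold between *med20Δ* and wild-type, where 3.92% of all genes did, and the median was 0.06 (-0.07, 0.01). All 5 *PRS* genes had a mean above 0, 3 of them on both arrays, and *PRS3* was the highest member at 0.87 (0.90, 0.84). *IMD4* followed at 0.66 (0.46, 0.87). Of the genes of IMP synthesis, 5 of 9 were below 0 on both arrays, where 33.1% of all genes were below and 33.1% above. They include *ADE6* (formylglycinamidine synthetase) at -0.75 (-0.91, -0.59), *ADE1* at -0.62 (-0.72, -0.52) and *ADE13* (adenylosuccinate lyase) at -0.60 (-0.88, -0.33). *URA10* was the lowest member, at -0.97 (-0.69, -1.25), just short of 2-fold. *AAH1* was not above background in *med20Δ* on either array and above it on 1 array in wild-type, so its ratio of -0.09 is not read as a level.

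The 4 comparisons of the rapamycin experiment form a closed loop, in which the untreated ratio plus the response of *med20Δ* minus that of wild-type gives a second value of the ratio between the treated strains. For the 34 members this derived value differed from the direct one with a median of 0.07 and an SD of 0.459, against 0.036 and 0.409 over 5647 genes. Given an error of 0.354 from the array pairs, 3 members, or 8.82%, lay beyond 2 errors, against 7.92% of all genes. They were *PRS3*, derived at -0.41 and measured at 0.87, *URA5*, derived at -0.91 and measured at 0.13, and *URA7*, derived at 0.43 and measured at -0.29. *PRS3* and *URA5* are among the 3 genes whose untreated means rested on replicate 2. For *URA10* the derived value was -0.60 and the direct one -0.97, and for *IMD4* they were 0.74 and 0.66.

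**Figure D2:**
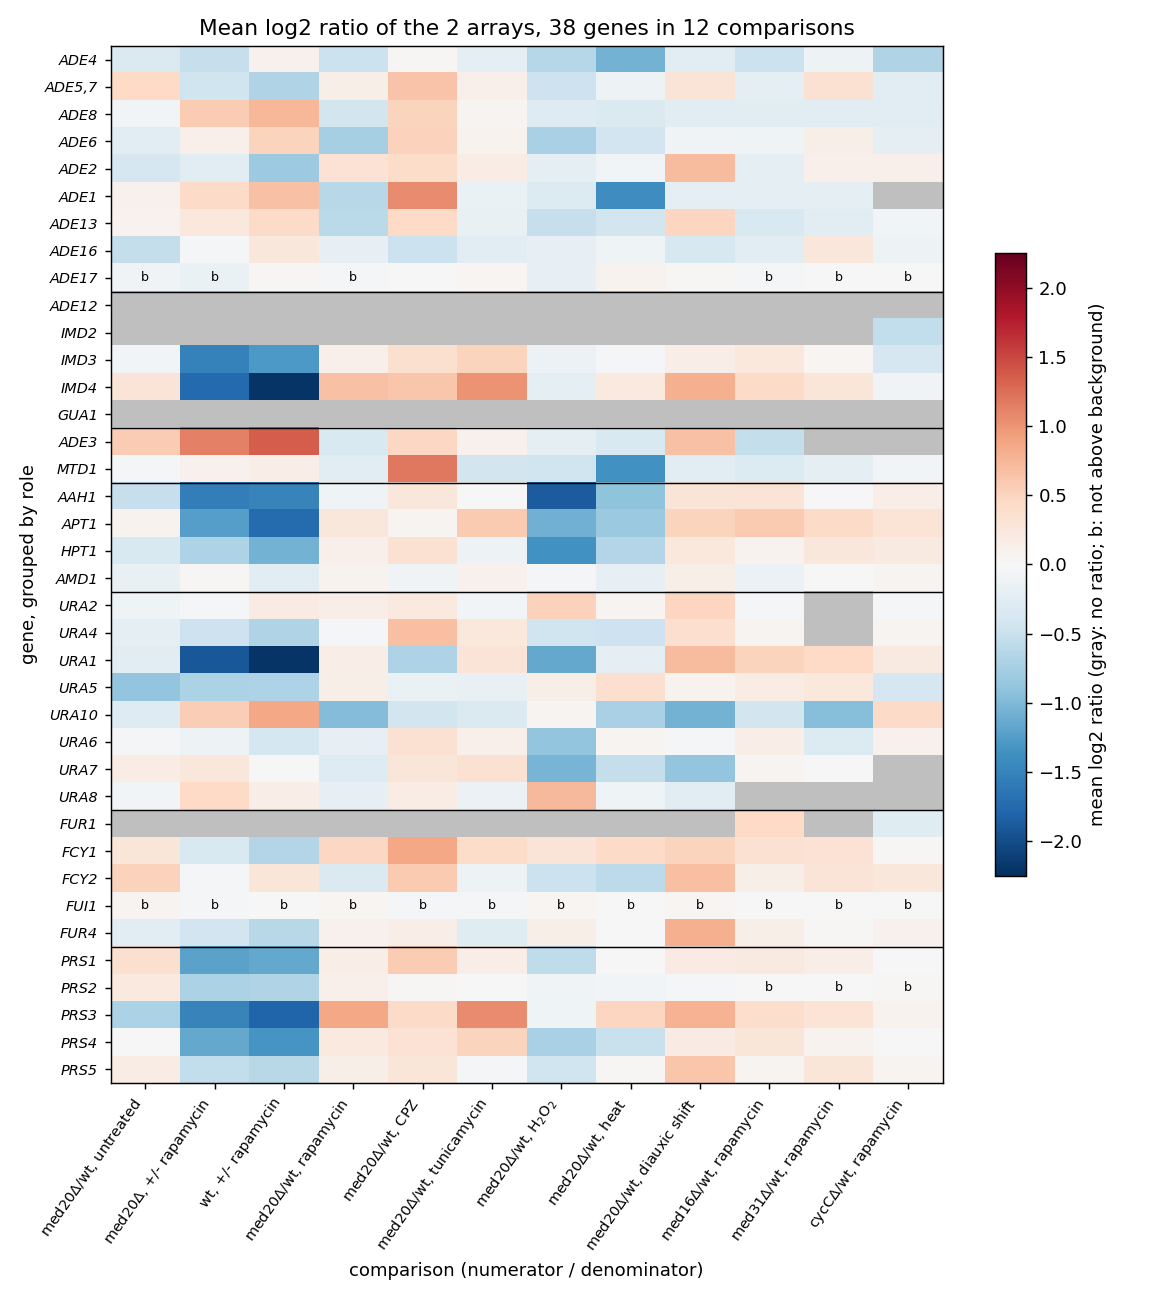
Mean log2 ratio of the 2 arrays for all 38 members (rows, grouped by role) in the 12 comparisons (columns, numerator over denominator). Gray cells have no ratio and the letter b marks spots not above background on any channel of the comparison. In the 2 columns of the rapamycin response *IMD4* and *URA1* reach -2.20 in wild-type, and *AAH1* reaches -1.88 with hydrogen peroxide.

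Hydrogen peroxide gave the largest number of members that differed between the strains. In *med20Δ* relative to wild-type, 5 of 34 members were lower by 2-fold or more and 0 were higher, against 1.54% and 2.83% of all genes. The median of the members was -0.29 (-0.36, -0.46), and 20 of 34 were below 0 on both arrays, or 58.8%, against 29.6% of all genes. The arrays of this pair differed more than any others over all genes. *AAH1* was the lowest member and the 8th lowest of all genes, with net intensities of 172.5 and 233.0 in *med20Δ* and 619.0 and 1203.5 in wild-type. All 4 values of *AAH1* were above background and those of *med20Δ* lay below those of wild-type, at a ratio of -1.88 (-1.76, -2.00), or 3.68-fold. Of the other purine salvage genes, *HPT1* was at -1.35 (-1.52, -1.19) and *APT1* at -1.09 (-0.89, -1.29), while *AMD1*, whose product acts within the AMP and IMP pool, was at -0.03 (-0.44, 0.37). In the pyrimidine pathway *URA1* was at -1.15 (-0.99, -1.31) and *URA7* at -1.04 (-1.03, -1.05). *APT1* and *URA1* were short of 2-fold on replicate 1, and *URA7* was so in the authors' ratios, at -0.88. The nearest member within 2-fold was *URA6*, the uridylate kinase gene, at -0.89 (-0.79, -0.99). *URA8*, the second CTP synthetase gene, had the opposite sign, at 0.72 (0.40, 1.04), the highest value among the members. All 9 genes of IMP synthesis had a mean below 0, from -0.73 for *ADE6* to -0.18 for *ADE16*, 6 of them on both arrays.

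After the shift to 39°C, 3 of 34 members were lower in *med20Δ* than in wild-type by 2-fold or more and 0 were higher, against 2.01% and 0.823% of all genes, and the median was -0.15 (-0.13, -0.28). *ADE1*, the gene of SAICAR synthetase in the chain to IMP, had net intensities of 569.0 and 325.5 in *med20Δ* and 930.5 and 1631.5 in wild-type and a ratio of -1.41 (-0.95, -1.86). *MTD1* was at -1.37 (-1.23, -1.51), with net intensities of 928.0 and 1766.0 in *med20Δ* and 1830.0 and 5040.5 in wild-type. *ADE4* was at -1.07 (-0.72, -1.42), with net intensities of 1993.5 and 1463.0 in *med20Δ* and 2752.0 and 3980.5 in wild-type. *MTD1* was past 2-fold on each array, *ADE1* and *ADE4* on replicate 2 only, and in the authors' ratios *ADE4* was at -0.66. The 4 salvage genes were all below 0 on both arrays, against 31.2% of all genes, with *AAH1* at -0.91 (-0.92, -0.91), *APT1* at -0.83 (-0.29, -1.36) and *HPT1* at -0.66 (-0.48, -0.84). The highest member was *PRS3*, at 0.49 (0.41, 0.56). *URA10* was at -0.72 (-0.31, -1.14).

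With CPZ the members leaned the other way. In *med20Δ* relative to wild-type, 2 of 34 were higher by 2-fold or more and 0 were lower, against 1.14% and 2.16% of all genes, and 22 of 34, or 64.7%, were above 0 on both arrays, against 29.3% of all genes. The median of the members was 0.33 (0.27, 0.30). The 2 genes were *MTD1*, at 1.18 (1.46, 0.90), with net intensities of 1099.0 and 424.5 in *med20Δ* and 277.0 and 253.0 in wild-type, and *ADE1*, at 1.06 (1.28, 0.85), with 698.0 and 1354.5 in *med20Δ* and 187.0 and 898.0 in wild-type. On replicate 2 neither was past 2-fold. These are 2 of the 3 genes that were lower in *med20Δ* after heat, while the third, *ADE4*, was at 0.03 (0.04, 0.02) with CPZ. *FCY1* was at 0.87 (0.62, 1.12) and *ADE5,7* at 0.64 (0.83, 0.45). *URA1* was the lowest member, at -0.69 (-0.29, -1.08), and *ADE16*, one of the genes of the last steps to IMP, was at -0.48 (0.06, -1.02) with arrays of opposite sign.

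With tunicamycin, the highest members were a PRPP and a GMP gene. In *med20Δ* relative to wild-type, 2 of 34 members were higher by 2-fold or more and 0 were lower, against 1.86% and 0.743% of all genes, with a median of 0.06 (0.06, 0.05). *PRS3* was at 1.07 (1.08, 1.06), with net intensities of 8196.0 and 9314.0 in *med20Δ* and 4620.0 and 5073.5 in wild-type. *IMD4* was at 1.00 (1.08, 0.93), with net intensities of 10697.5 and 3717.0 in *med20Δ* and 6389.0 and 2237.5 in wild-type. It stood at the threshold and fell below it when the ratios were centered on their median (0.90) or taken as the authors normalized them (0.85). *APT1* was at 0.58 (0.60, 0.57), *IMD3* at 0.50 (0.71, 0.28) and *PRS4* at 0.50 (0.36, 0.63). The lowest member was *MTD1*, at -0.42 (-0.38, -0.45), and the genes of IMP synthesis lay between -0.26 and 0.17.

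Past the diauxic shift, when glucose is used up and the cells respire, 1 of 34 members was lower in *med20Δ* by 2-fold or more and 0 were higher, against 1.98% and 0.892% of all genes. This was *URA10*, at -1.06 (-0.86, -1.27), with net intensities of 1152.5 and 1576.0 in *med20Δ* and 1505.5 and 2997.0 in wild-type. It was short of 2-fold without replicate 2 and, at -0.97, when the ratios were centered on their median. The members had a median of 0.18 (0.18, 0.19), and 17 of 34, or 50%, lay above 0 on both arrays, against 28.1% of all genes. *IMD4*, at 0.79 (0.45, 1.14), *FUR4*, at 0.79 (0.84, 0.74), *PRS3*, at 0.77 (0.67, 0.88), and *URA1*, at 0.71 (1.12, 0.31), were highest. *ADE2* was at 0.70 (0.80, 0.61) and *FCY2* at 0.68 (0.63, 0.73), each with arrays close together. *URA7* was at -0.88 (-0.52, -1.25).

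**Figure D3:**
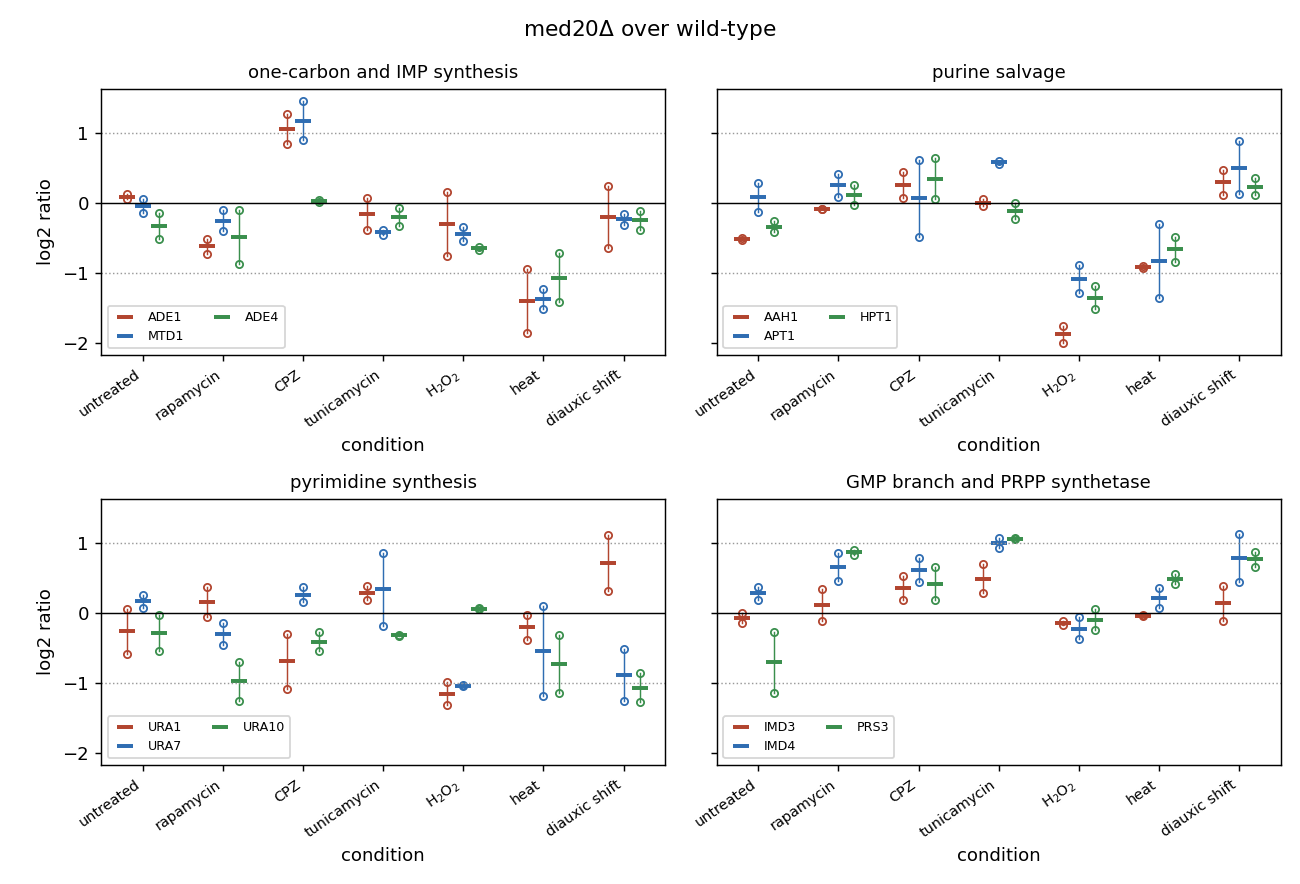
Log2 ratio of *med20Δ* over wild-type in the 7 conditions for 12 members in 4 panels by role. Open circles are the 2 arrays, bars their mean and dotted lines 2-fold. *ADE1* and *MTD1* are above 2-fold with CPZ (1.06 and 1.18) and below it after heat (-1.41 and -1.37), and *AAH1*, *APT1* and *HPT1* are lowest with hydrogen peroxide (-1.88, -1.09 and -1.35).

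Across these 7 conditions single members kept or changed their sign. *URA10* was below 0 on both arrays in 6 of 7, from -0.28 without treatment to -1.06 past the diauxic shift, and close to 0 with hydrogen peroxide, at 0.07 (0.07, 0.07). *MTD1* had a mean below 0 in 6 of 7 and stood at 1.18 with CPZ. *PRS3* was above 0 on both arrays in 5, below 0 on both without treatment, and at -0.09 (-0.24, 0.07) with hydrogen peroxide. *AAH1*, leaving aside its unread ratio after rapamycin, was below 0 on both arrays without treatment, with hydrogen peroxide and after heat, and above 0 on both with CPZ, at 0.26 (0.07, 0.44), and past the diauxic shift, at 0.30 (0.12, 0.47). *AMD1*, by contrast, stayed between -0.18 and 0.13 in all 7. The comparisons hold 1 replicate each, and differences between conditions were not tested.

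The other Mediator modules were compared after rapamycin only. After rapamycin 0 of 34 members passed 2-fold in *med16Δ* relative to wild-type, against 0.236% of all genes, 0 of 30 in *med31Δ*, against 0.843%, and 0 of 32 in *cycCΔ*, against 0.641%. The medians were 0.05 in *med16Δ*, 0.06 in *med31Δ* and 0.01 in *cycCΔ*, beside 0.06 in *med20Δ*. The SD of the ratios across all genes was 0.197 in *med16Δ*, 0.251 in each of *med31Δ* and *cycCΔ*, and 0.428 in *med20Δ*. The error of a pair mean was 0.156 in *med16Δ*, 0.2 in each of *med31Δ* and *cycCΔ*, and 0.199 in *med20Δ*. The correlation between the arrays of a pair was 0.25 in *med16Δ*, 0.239 in *med31Δ* and 0.231 in *cycCΔ*, against 0.663 in *med20Δ*. In *med16Δ*, *med31Δ* and *cycCΔ* the error thus came close to the SD, and ratios of that size, with their signs, are uncertain. No difference between the deletion strains was tested. All 9 genes of IMP synthesis had a mean below 0 in *med16Δ*, 6 of them on both arrays, and in *cycCΔ* 6 of 8 were below 0 on both arrays, against 26% of all genes in *med16Δ* and 26.8% in *cycCΔ*. These counts include *ADE17*, which was not above background there. *ADE4*, the lowest of these in both, was at -0.48 (-0.15, -0.80) in *med16Δ* and -0.68 (-0.65, -0.72) in *cycCΔ*, and at -0.12 (-0.12, -0.12) in *med31Δ*. *ADE3* was the lowest member in *med16Δ*, at -0.53 (-0.15, -0.91).

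*URA10* was the lowest member in *med31Δ*, at -0.96 (-0.77, -1.15), and was at -0.42 (-0.34, -0.49) in *med16Δ* and 0.43 (0.39, 0.47) in *cycCΔ*, where it was the highest. *APT1* was the highest member in *med16Δ*, at 0.59 (0.65, 0.54), and was at 0.44 (0.49, 0.38) in *med31Δ* and 0.30 (0.28, 0.32) in *cycCΔ*. *URA1* was at 0.50 (0.51, 0.49) in *med16Δ*, 0.46 (0.63, 0.28) in *med31Δ* and 0.20 (0.44, -0.04) in *cycCΔ*. *IMD4* was at 0.42 (0.45, 0.40) in *med16Δ*, 0.27 (0.30, 0.25) in *med31Δ* and -0.07 (0.09, -0.23) in *cycCΔ*. The arrays of *URA10* thus lay on opposite sides of 0 in *med31Δ* and *cycCΔ*, while those of *APT1* lay above 0 in all 3 strains. *IMD2* had its only ratio in *cycCΔ*, at -0.56 (0.22, -1.34), with arrays of opposite sign, and *FUR1* was at 0.46 (0.65, 0.27) in *med16Δ* and -0.27 (0.15, -0.69) in *cycCΔ*.

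**Figure D4:**
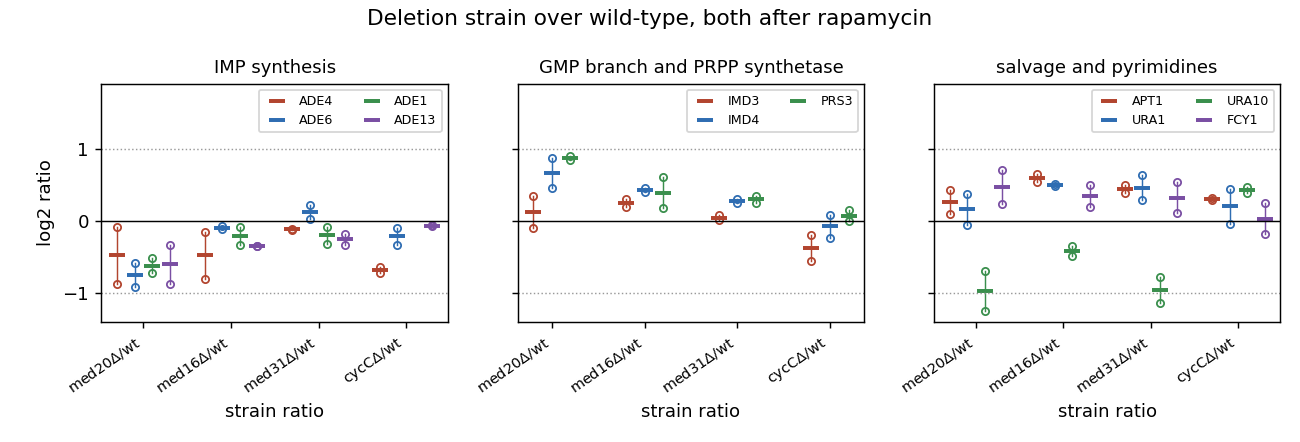
Log2 ratio of 4 deletion strains over wild-type, both after rapamycin, for 11 members in 3 panels by role. Open circles are the 2 arrays, bars their mean and dotted lines 2-fold. *URA10* is lowest in *med20Δ* (-0.97) and *med31Δ* (-0.96) and above 0 in *cycCΔ* (0.43).

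A further list of 33 nucleotide genes, 32 of them on the array, which holds kinases, ribonucleotide reductase, one-carbon genes and transporters, was read beside the members. After rapamycin 1 of 30 measured was lower by 2-fold or more and 4 were higher in *med20Δ*, against 5.57% and 3.19% of all genes. In wild-type 2 of 29 were lower and 5 higher, against 6.2% and 3.94%. The genes of the glycine cleavage system, which supplies one-carbon units in mitochondria, were higher: *GCV1* was at 2.03 (2.06, 1.99) in *med20Δ* and 1.38 (1.48, 1.29) in wild-type, *GCV2* at 1.98 (1.88, 2.07) and 1.64 (1.56, 1.72), and *GCV3* at 2.19 (2.00, 2.37) and 1.19 (1.20, 1.18), in the same order. *SHM2*, the cytoplasmic serine hydroxymethyltransferase gene, was at 0.98 (0.95, 1.00) in *med20Δ* and 1.45 (1.73, 1.17) in wild-type, and *ADE3* uses its product. *TPN1*, the vitamin B6 transporter gene, was at 0.59 (0.29, 0.89) in *med20Δ* and 1.14 (1.17, 1.11) in wild-type, and *ISN1*, the IMP nucleotidase gene, at 1.09 (1.24, 0.94) and 0.73 (0.65, 0.82) in the same order. Lower were *MEU1*, which acts in methylthioadenosine salvage, at -1.05 (-1.13, -0.97) in *med20Δ* and -1.19 (-1.15, -1.24) in wild-type, and the guanylate kinase gene *GUK1*, at -0.26 (-0.26, -0.26) in *med20Δ* and -1.19 (-0.99, -1.38) in wild-type.

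Between the strains, the genes of the further list named here are those past 2-fold. In *med20Δ* relative to wild-type 2 of 29 were lower without treatment, or 6.9%, against 0.683% of all genes, and 5 of 30 after heat, or 16.7%, against 2.01%. In *med20Δ*, *SHM2* was at -0.92 (-0.87, -0.98) without treatment, -1.35 (-1.47, -1.23) after rapamycin and -1.98 (-2.01, -1.95) after heat, and it was at -1.22 (-0.90, -1.53) in *cycCΔ*. *GCV1* was at -1.06 (-0.97, -1.15) and *GCV3* at -1.13 (-1.19, -1.07) in untreated *med20Δ*, and *GCV1*, *GCV2* and *GCV3* were at -1.31, -1.32 and -1.79 after heat, where *ADE1*, *ADE4* and *MTD1* were lower too. *GCV1* was also at -1.03 (-1.14, -0.93) with tunicamycin. With hydrogen peroxide *GCV3* was at -1.45 (-0.70, -2.20), the ribonucleotide reductase gene *RNR1* at -1.33 (-1.01, -1.66) and the dCMP deaminase gene *DCD1* at -1.04 (-0.96, -1.13). *RNR2*, which encodes the small subunit of ribonucleotide reductase, was at -1.53 (-0.91, -2.16) after heat and -1.14 (-0.21, -2.07) past the diauxic shift. *GUK1* was the only gene of the list higher by 2-fold or more in *med20Δ*, at 1.01 (0.68, 1.34) with CPZ. Of the regulators, *BAS1* stayed between -0.27 and 0.10 in all 12 comparisons. Its lowest ratio was between the strains after rapamycin, where *med20Δ* was not above background on either array, so this fall is at least 1.07-fold. The highest regulator value was that of *PHO2*, at 0.71 (0.22, 1.21) with hydrogen peroxide. The lowest was -0.52, with tunicamycin, among the comparisons of *med20Δ* and wild-type, and -0.57 in *med16Δ*. *GCN4*, the activator of amino acid and some purine genes, had a ratio only in *med16Δ*, *med31Δ* and *cycCΔ*, and *PPR1* was not above background there.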

How the data were processed

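The authors deposited 1 file per two-color hybridization, with the intensity of each spot and of its surroundings in both dyes, a spot flag whose meaning is not stated, and a normalized log10 ratio of Cy5 over Cy3. The label ch1 is Cy3 and ch2 is Cy5, so ratios were turned to the numerator named. Image software is not given in the sources used here, and the deposited series table of log10 ratios repeats the array files and was not used. The number of arrays limits the precision, and median net intensities were 82.5 to 1072.5 per channel, with 65.3% to 96.4% of ORF spots above background.

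Each array has 6912 spots, of which 576 controls, the 29 unnamed spots and 309 to 622 flagged ORF spots per array (flag other than 1) were left out. The normexp correction (offset 50), which pulls dim ratios toward 0, and loess (span 0.3) gave log2 ratios in limma 3.58.1 (R 4.3.3). Tables were made in pandas 2.3.3 and numpy 2.4.6 (Python 3.11.15) and plots in matplotlib 3.10.9. Names came from the alias or the R64 gene table, which matched 5801 ORFs. The bound for *AAH1* used single-channel values after loess and Aquantile scaling, which rest on 1 dye swap.

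Members and lists were chosen with earlier results of these data known. Named genes are members past 2-fold with both arrays in the same direction in at least 1 comparison, the extremes of each comparison or role, and genes of the further list past 2-fold. Other members and regulators named were chosen after their values were seen. The ratios were recomputed with median centering, with loess that ignored ribosomal protein genes, with the local background subtracted or not corrected at all, with the ratios as deposited, without the dimmest 25% of ORFs and from either array alone. Counts were also taken at 2-fold on both arrays, at 1.5-fold, and by limma (adjusted p below 0.05) with arrays taken as separate samples. Promoter motifs and protein identities were not analysed here.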

Additional observations from a re-analysis of the deposited data

Results flagged for a closer look

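Some values had opposite signs in different conditions, with both arrays of each condition on the same side of 0, all in *med20Δ* relative to wild-type. None of these differences was tested, and some of the values lay within the error of a pair mean over all genes. These were *ADE4* with CPZ, at 0.03 against an error of 0.241, and 2 genes with hydrogen peroxide. There *IMD4* was at -0.22 and *URA10* at 0.07, against an error of 0.295. For these genes no change of sign is read. The median of the members was 0.33 with CPZ and -0.29 with hydrogen peroxide, a difference of 0.626. Between CPZ and heat the difference was 2.55 for *MTD1*, 2.47 for *ADE1* and 1.10 for *ADE4*. Between CPZ and hydrogen peroxide it was 1.71 for *HPT1* and 1.31 for *URA7*, and between tunicamycin and hydrogen peroxide 1.67 for *APT1* and 1.22 for *IMD4*. Between the diauxic shift and hydrogen peroxide it was 2.18 for *AAH1* and 1.87 for *URA1*, and -1.06 against 0.07, or 1.13 in size, for *URA10*. *PRS3* differed by 1.77 between tunicamycin and no treatment.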

How the results depend on the processing

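The 32 ratios of members past 2-fold were chosen with both arrays of the same sign. Either array alone therefore could not reverse them, and leaving out dim ORFs does not change a ratio that remains. Under the other settings all 32 kept their sign. In each of the up to 8 settings that gave a ratio, 21 stayed past 2-fold. With the local background subtracted, *AAH1* reached -3.55 in *med20Δ* with rapamycin and -2.91 in wild-type. Medians and counts of members are given first for *med20Δ* and wild-type with rapamycin, then for the strain ratios.

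Without background correction the medians were 0.36 (CPZ), 0.032 (tunicamycin) and 0.077 (*med31Δ*), and 1 member was past 2-fold between the strains after rapamycin and 1 in *med31Δ*. With the local background subtracted they were -0.42 and -0.75, 0.41 (CPZ), 0.10 (tunicamycin), -0.40 (hydrogen peroxide), 0.25 (diauxic shift) and 0.12 (*med31Δ*), with 1 member each in *med20Δ*, *med16Δ* and *med31Δ* after rapamycin. Median centering gave -0.53 (wild-type), 0.26 (diauxic shift), 0.11 (*med16Δ*) and 0.10 (*med31Δ*), with 1 member for tunicamycin and 0 for the diauxic shift. Loess without ribosomal protein genes gave -0.40, -0.59 and 0.21 (diauxic shift). The authors' ratios gave -0.45, -0.49, 0.38 (CPZ), -0.42 (hydrogen peroxide), 0.26 (diauxic shift), 0.091 (*med16Δ*) and 0.17 (*med31Δ*), with 1 member for tunicamycin and 1 each in *med20Δ*, *med16Δ* and *med31Δ* after rapamycin. Leaving out the dimmest 25% gave -0.62 (wild-type), 0.074 (tunicamycin) and 0.11 (*med31Δ*).

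Leaving out either array gave medians of -0.376 to -0.254 (*med20Δ*) and -0.478 to -0.473 (wild-type) with rapamycin, and for the strains -0.098 to 0.061 (untreated), -0.071 to 0.012 (rapamycin), 0.267 to 0.301 (CPZ), 0.050 to 0.062 (tunicamycin), -0.465 to -0.362 (hydrogen peroxide), -0.283 to -0.132 (heat), 0.179 to 0.188 (diauxic shift), -0.024 to 0.027 (*med16Δ*), 0.030 to 0.044 (*med31Δ*) and -0.042 to 0.080 (*cycCΔ*). Counts were 8 to 9 and 9 to 12 with rapamycin, then 0 to 3, 0 to 1, 3 to 3, 1 to 2, 3 to 6, 1 to 6, 2 to 3, 0 to 0, 0 to 1 and 0 to 1 in the same order. Replicate 2 alone gave the higher count in 9 of the 12 comparisons, replicate 1 alone with tunicamycin. The replicate number also sets the dye order, which was the same in all strain comparisons and the reverse in the rapamycin responses. A difference between replicates and a dye effect on a gene therefore cannot be told apart. The direction of the members called also changed: with CPZ 1 was higher and 2 were lower without replicate 1, but 3 were higher and 0 lower without replicate 2, and past the diauxic shift 1 was higher and 2 lower without replicate 1, but 2 higher and 0 lower without replicate 2. At 2-fold on both arrays, 8 members remained past the limit in *med20Δ* and 9 in wild-type with rapamycin. Between the strains 0 remained with CPZ, 1 with tunicamycin, 3 with hydrogen peroxide, 1 after heat and 0 past the diauxic shift. The other strain comparisons had 0, as on the pair mean. At 1.5-fold the counts with rapamycin were 12 in *med20Δ* and 21 in wild-type. For the strain ratios they were 2 (untreated), 6 (rapamycin), 7 (CPZ), 3 (tunicamycin), 10 (hydrogen peroxide), 8 (heat) and 10 (diauxic shift). In *med16Δ*, *med31Δ* and *cycCΔ* the count was 1 each. The share of all genes past 1.5-fold, or past 2-fold on both arrays, was not computed. These counts therefore cannot be set against all genes and are not read as a trait of the members.

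Limma was run with arrays as separate samples, which no source states. The share of all genes called stands in parentheses after each count of members. It called 16 of 34 (26.3%) in *med20Δ* and 19 (29.2%) in wild-type with rapamycin. Between the strains it called 1 untreated (3.17%), 4 with rapamycin (10.6%), 9 with CPZ (14.2%) and 3 with tunicamycin (6.3%). It called 16 with hydrogen peroxide (18.7%), 9 after heat (11.4%) and 9 past the diauxic shift (14.3%). The counts were 0 in *med16Δ* (0.456%), 1 in *med31Δ* (2.72%) and 0 in *cycCΔ* (2.13%). With the replicate block the counts were 17 (28.1%) in *med20Δ* and 20 (30.6%) in wild-type with rapamycin. For the strain ratios they were, in the same order, 1 (4.11%), 5 (11.7%), 9 (15.4%), 4 (7.15%), 15 (20.1%), 9 (12.8%), 10 (16.5%), 0 (0.439%), 1 (3.07%) and 1 (2.36%). Replicate numbers were not taken as pairs: over 66 pairs of comparisons, the deviations of same-numbered arrays had r between -0.539 and 0.796, with a median of 0.059, and 24 were above 0.1. The causes of these shifts were not tested. The deposited intensities give no depth, and spots near background, as *AAH1* with rapamycin, *ADE17* and *FUI1*, limit what can be read.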
